A study of Mus musculus with 3 samples.

Results

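Brain microvascular fragments are short pieces of small vessel freed from brain tissue, in which endothelial cells stay joined to the mural and other cells around them. The 3 libraries (n = 3) are from adult wild-type mice of the C57BL/6J strain. They make up 1 group, with no untreated brain, sorted cell or treated sample beside them. Described here are 10 genes of iron uptake, storage and export, of 56941 genes in the count table. They were chosen by gene symbol: transferrin (Trf), its receptor (Tfrc), the iron carriers Slc11a2 and Slc40a1, the ferritin chains Fth1 and Ftl1, the ferroxidases Heph and Cp, and the heme oxygenases Hmox1 and Hmox2. All 10 symbols were found, each as a single row.

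Iron enters the brain across the endothelium of its small vessels. Transferrin carries ferric iron in blood, the transferrin receptor takes the loaded protein into endosomes, and the divalent metal transporter encoded by Slc11a2 moves reduced iron across the endosomal membrane. Inside the cell, iron is stored in a ferritin shell built of heavy and light chains, and it leaves through ferroportin, encoded by Slc40a1, after which a copper-containing ferroxidase oxidises it. Heme oxygenases release iron from heme. When iron is scarce, the iron regulatory proteins bind stem-loops called iron-responsive elements. Binding near the start of a message is known to block its translation, and binding behind the coding sequence of the receptor message is known to protect it from decay.

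These elements are the sequences that tie several of the 10 genes together, so the matches found in the coding transcripts of GENCODE M21 (build GRCm38, read 5′ to 3′) are shown. The search, on the transcript strand, asked for a C, any 5 bases, the letters CAGTG and any 1 base, with the 5 bases after the leading C able to pair, G-T pairs included, with the 5 bases behind the loop. Capitals mark the unpaired C and the loop, and each window adds 5 bases on either side.
Tfrc, from base 3321 of Tfrc-201: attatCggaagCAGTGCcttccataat
Tfrc, from base 3700 of Tfrc-201: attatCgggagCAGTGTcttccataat
Tfrc, from base 3765 of Tfrc-201: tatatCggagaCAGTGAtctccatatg
Tfrc, from base 3812 of Tfrc-201: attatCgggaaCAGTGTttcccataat
Fth1, from base 93 of Fth1-201: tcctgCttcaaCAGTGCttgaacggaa
Ftl1, from base 84 of Ftl1-201: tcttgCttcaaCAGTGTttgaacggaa
Slc40a1, from base 96 of Slc40a1-201: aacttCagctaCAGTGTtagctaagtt
Slc11a2, from base 1803 of Slc11a2-205: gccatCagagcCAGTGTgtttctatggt
The base named is that of the leading C, counted from 1 at the start of the transcript.

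The 2 ferritin chains and ferroportin carry their match in the 5′ untranslated region, and the transferrin receptor carries 4 matches in its 3′ untranslated region. The Fth1 and Ftl1 windows were identical at 25 of 27 bases, whereas each was identical to the Slc40a1 window at 13 of 27. Within Tfrc, pairs of windows were identical at 17 to 25 of 27 bases. The Slc11a2 match, in the 3′ untranslated region, holds only if 1 base of the stem is left unpaired, and it is present in 1 of the 6 coding transcripts of that gene. The other matches are also limited to some coding transcripts: 1 of 3 for Tfrc, 4 of 5 for Fth1, 1 of 2 for Ftl1 and 1 of 4 for Slc40a1. Counts per gene do not separate these transcripts. The letters alone occur in 67.2% of the 21877 coding genes of that annotation, the letters with the paired stem in 1.34%, and with up to 1 unpaired base in 4.03%. Trf, Heph, Cp, Hmox1 and Hmox2 held neither form of the match in their coding transcripts. A match describes letters, and no binding was measured here.

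**Figure D1:**
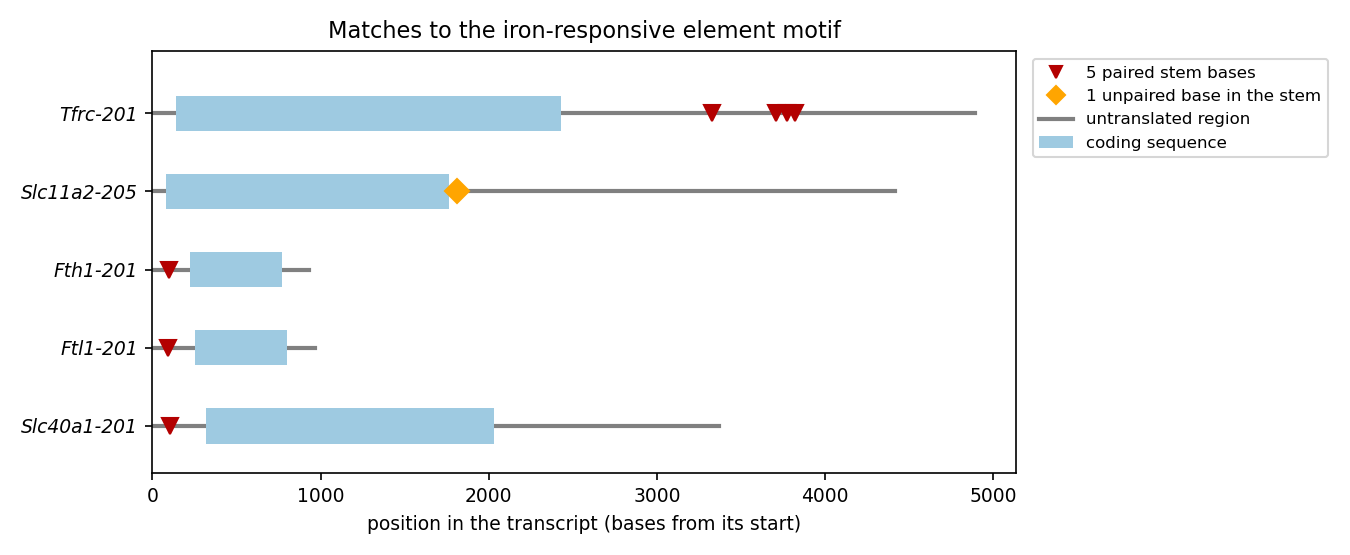
Positions of the motif matches in 5 transcripts, drawn to scale in bases from the transcript start, with the coding sequence as a bar and untranslated regions as a line. The matches of Fth1, Ftl1 and Slc40a1 lie before the coding sequence, and those of Tfrc and Slc11a2 behind it.

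Depth ranged from 128428355 to 150449539 counts per library. The fragments were rich in endothelial transcripts: all 10 endothelial markers were detected, with a summed level of 15625 to 18664 CPM (counts scaled to the same library size, with TMM normalization). Transcripts of other cells were present too. The summed level was 3852 to 4077 CPM for 10 pericyte markers, 4811 to 6348 CPM for 8 microglial markers, 5106 to 8265 CPM for 8 choroid plexus markers and 1059.9 to 1946 CPM for 8 astrocyte markers. It was 656 to 1056 CPM for 9 oligodendrocyte markers, of which Mal alone gave 495 to 896 CPM, and 95.6 to 119 CPM for 8 neuronal markers. No marker of these lists was at 0 in all libraries. Globin and other erythroid markers summed to 1090, 134 and 62.5 CPM in replicates 1, 2 and 3, and pituitary markers to 20.9, 1435 and 18.3 CPM, so replicates 1 and 2 each stood apart in one of these. In such mixed samples, fewer cells of a type and less RNA per cell cannot be told apart.

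All 10 iron genes were detected, meaning 1 CPM or more in every library, where 23.2% of all genes in the table were. They took 0.318%, 0.311% and 0.301% of all counts in replicates 1, 2 and 3, and Fth1 alone made up 47.0%, 49.1% and 48.7% of that. At 100 CPM or more in every library stood 6 of the 10 (Trf, Tfrc, Fth1, Ftl1, Slc40a1 and Cp), against 14.9% of the 13211 detected genes. The median of their mean levels was 189 CPM, beside 26.7 CPM over all detected genes. Long genes collect more counts, so the order of the genes is given further on per kilobase of exon.

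**Figure D2:**
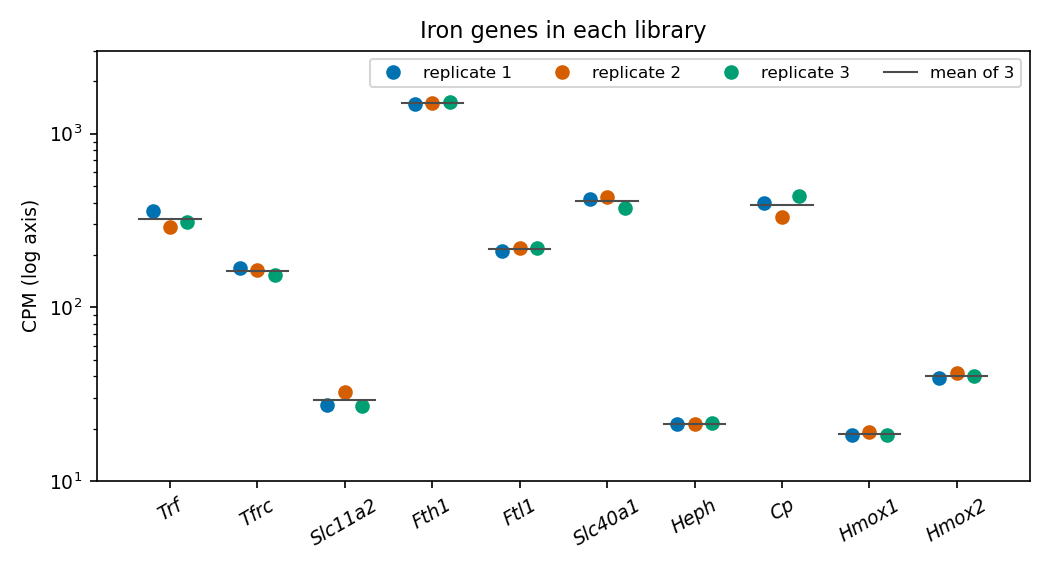
CPM of the 10 iron genes on a log axis, with a point for each of the 3 libraries and a bar for their mean. On this axis the libraries lie close together for each gene, with the widest spread in Cp (332 to 435 CPM) and the highest level in Fth1 (1476 to 1519 CPM).

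Iron uptake. Trf, which encodes the iron-carrying protein of blood and brain fluid, had 361, 291 and 311 CPM in replicates 1, 2 and 3, a mean of 321 ± 35.9 CPM (SD, n = 3). Replicate 1 was the highest and the other libraries lay closer to each other. Oligodendrocytes and choroid plexus epithelium are known sources of transferrin in brain. Oligodendrocyte markers, with 7 of 9 detected, summed to 929, 656 and 1056 CPM, and choroid plexus markers, with 8 of 8 detected, to 6965, 8265 and 5106 CPM in replicates 1, 2 and 3. Neither sum followed the order of Trf, but each is mostly a single gene. The choroid plexus sum is mostly Ttr, and the mean log2 deviation of that list (0.32, 0.11 and -0.43) had replicate 1 highest, as Trf had, but replicate 3 lowest. The oligodendrocyte sum is mostly Mal, and the mean log2 deviation of that list (0.10, -0.15 and 0.05) did have replicate 1 highest and replicate 2 lowest. The sums of 8 microglial markers (6348, 4811 and 5819 CPM) and 6 macrophage markers (28.1, 16.0 and 24.6 CPM) had that order too. So did the sum of 8 neuronal markers (119, 95.6 and 112 CPM), though not its mean log2 deviation (0.29, -0.14 and -0.15). The fibroblast list had that order by its mean log2 deviation (0.17, -0.21 and 0.05), though not by its sum (710, 716 and 843 CPM). The part of any of these cells in the Trf level was not tested. In GENCODE M21, 63.5% of the exonic length of Trf lies under exons of Gm20425 on the same strand. The count table has no row under that symbol, and the annotation used for counting was not stated. How reads of these stretches were assigned is therefore not known.

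Tfrc, the receptor that takes up loaded transferrin and a known gene of brain endothelium, had 169, 163 and 154 CPM, a mean of 162 ± 7.65 CPM (SD, n = 3). The 3 libraries lay within a factor of 1.10 of each other, with replicate 3 lowest. Slc11a2, the divalent metal transporter, was far lower in CPM at 27.4, 32.6 and 27.2, with a mean of 29.1 ± 3.06 CPM. Replicate 2 was the high one, and replicates 1 and 3 were nearly alike. The pituitary, astrocyte, pericyte, oligodendrocyte precursor and early response lists also stood highest in replicate 2, by their sums and by their mean log2 deviations. Their part in the Slc11a2 level was not tested. The choroid plexus sum did so through Ttr (6329, 7759 and 4759 CPM), while the other 7 markers of that list were highest in replicate 1. Of the pituitary list only 1 of 7 genes was detected, so its mean log2 deviation is that of Pomc. Its sum of 1435 CPM in replicate 2 was mostly Gh (1233 CPM). In replicates 1 and 2 the pericyte sums (4025 and 4077 CPM) and the precursor sums (20.7 and 20.9 CPM) were close.

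Iron storage. Fth1, the heavy chain with the ferroxidase activity of ferritin, had 1476, 1492 and 1519 CPM, a mean of 1496 ± 21.3 CPM (SD, n = 3). It was the 59th most abundant of the detected genes by CPM. Ftl1, the light chain that helps iron to settle in the shell, had 210.1, 218 and 219 CPM, a mean of 216 ± 5.07 CPM. Both chains were lowest in replicate 1 and differed little between the libraries, with a coefficient of variation (CV, the SD as a percentage of the mean) of 1.43% for Fth1 and 2.35% for Ftl1.

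Per kilobase of exon, Fth1 stood above Ftl1 by 1.44, 1.4 and 1.42 on the log2 scale in replicates 1, 2 and 3, a mean of 1.42 ± 0.02 (SD, n = 3) or 2.68-fold. The size of that difference rests on the gene lengths used: it was 2.17 with the longest coding transcript of each gene and 2.79 with no length scaling. Ferritin genes have many processed copies in the genome. Of the 150-base windows of the annotated transcripts, 59.2% in Ftl1 occurred letter for letter in transcripts of other genes (Ftl1-ps1, Ftl2-ps, Gm10252, Gm15590 and Gm47428), and 0% in Fth1, so the Ftl1 count is uncertain. The rows named as ferritin copies held few reads: Ftl1-ps1 had 132, 92 and 105 counts, Fth1-ps had 24, 20 and 23 counts, and Ftl1-ps2, Ftl2-ps, Fth-ps2 and Fth-ps3 had at most 7 counts in a library. Together they came to 0.0506% to 0.0729% of the Fth1 and Ftl1 counts. Adding them to their genes gave a log2 ratio of 1.41. Gm15590, with 76, 90 and 81 counts, was not among the rows added. Reads that match Ftl1 and a copy alike may be counted in neither, as their handling was not stated. So these counts do not settle how far the Ftl1 count is off.

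Iron export. Slc40a1, which encodes ferroportin, the only known exporter of iron in mammals, had 421, 429 and 373 CPM, a mean of 408 ± 30.6 CPM (SD, n = 3). Replicate 3 was the low one, as it was for the summed astrocyte, choroid plexus, pericyte, oligodendrocyte precursor, erythroid and pituitary markers. By mean log2 deviation, the pericyte list was instead lowest in replicate 1. The part of these cells in the Slc40a1 level was not tested. Cp, the ferroxidase ceruloplasmin, had 399, 332 and 435 CPM, a mean of 389 ± 52.2 CPM, and replicate 2 was the low one. Heph, the membrane-bound ferroxidase hephaestin, had 21.3, 21.2 and 21.5 CPM, a mean of 21.3 ± 0.196 CPM, and the libraries could hardly be told apart.

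Of the 2 ferroxidases, Cp was the higher one in every library. Per kilobase of exon, Heph lay below Cp by log2 differences of -3.91, -3.65 and -4.01 in replicates 1, 2 and 3, a mean of -3.86 ± 0.19 (SD, n = 3). With the longest coding transcripts the mean was -4.23. Astrocytes are a known source of ceruloplasmin in brain, and astrocyte markers, with 8 of 8 detected, summed to 1737, 1946 and 1059.9 CPM. That sum was mostly Slc1a2 (1210, 1303 and 627 CPM). The mean log2 deviation of the astrocyte list was 0.09, 0.23 and -0.32. Markers of smooth muscle, with 8 of 8 detected, summed to 5498, 4869 and 5595 CPM, those of microglia, with 8 of 8 detected, to 6348, 4811 and 5819 CPM, and those of macrophages, with 3 of 6 detected, to 28.1, 16.0 and 24.6 CPM. The smooth muscle, microglial, macrophage, oligodendrocyte and neuronal sums were lowest in replicate 2, as Cp was, and the astrocyte sum in replicate 3. By mean log2 deviation, the neuronal list was instead lowest in replicate 3, narrowly (0.29, -0.14 and -0.15). The fibroblast list was lowest in replicate 2 by that measure (0.17, -0.21 and 0.05), though not by its sum. The part of these cells in the Cp level was not tested.

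Heme breakdown. Hmox1, the stress-inducible heme oxygenase, had 18.4, 19.2 and 18.4 CPM, a mean of 18.7 ± 0.478 CPM (SD, n = 3). Hmox2, the constitutive form, had 39.2, 41.7 and 40.4 CPM, a mean of 40.4 ± 1.25 CPM. Both were highest in replicate 2, by small margins. Per kilobase of exon, Hmox1 lay below Hmox2 by log2 differences of -0.75, -0.78 and -0.80, a mean of -0.77 ± 0.02 (SD, n = 3), so the constitutive form was the higher one in every library. In GENCODE M21, 40.2% of the exonic length of Hmox2 lies under exons of Cdip1 on the other strand. Cdip1 had 11309, 14791 and 13460 counts, above the 5104, 5830 and 5859 counts of Hmox2. The strand setting of the counting is not given in the sources used here, so the Hmox2 level is uncertain.

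Early response genes, which rise within minutes in stressed or handled tissue, differed widely between the same libraries. All 10 of them had a highest library at least 1.5 times the lowest, where 12.2% of the detected genes did. The edgeR dispersion test, described further on, called 0 of these 10, with a lowest adjusted p of 0.053 for Fos and Egr1. Their mean log2 deviation was -0.88, 0.87 and 0.01 in replicates 1, 2 and 3. Fos was at 13.7, 86.6 and 32.6 CPM, lowest in replicate 1 and highest in replicate 2. Hmox1 deviated by -0.02, 0.04 and -0.02 on the same scale. The erythroid sum, given above, spanned 1090 to 62.5 CPM and was highest in replicate 1. Both heme oxygenases were highest in replicate 2, by small margins, as the early response list was. The part of either list in the heme oxygenase levels was not tested.

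Ordered per kilobase of exon, the ferritin chains led and the metal transporter and hephaestin closed the list. Fth1 had 431 ± 6.15 CPM per kb (SD, n = 3), Ftl1 161 ± 3.79 and Trf 96.6 ± 10.8. Slc40a1 followed at 45.3 ± 3.40 CPM per kb, Cp at 40.6 ± 5.46 and Tfrc at 26.2 ± 1.24. The lower levels were those of Hmox2 at 18.2 ± 0.562 CPM per kb, Hmox1 at 10.7 ± 0.273, Slc11a2 at 4.57 ± 0.481 and Heph at 2.78 ± 0.0256. Of the 12813 detected genes with a length in GENCODE M21, 99.5% were at or below Fth1, 91.7% at or below Slc40a1, 85.5% at or below Tfrc, 42.9% at or below Slc11a2 and 31.1% at or below Heph.

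Neighbours in this order were called separated when the upper gene was higher in 3 of 3 libraries and the mean log2 difference exceeded its SD. Of the 9 neighbouring pairs, 8 were separated. Slc40a1 and Cp were not: the log2 difference was 0.16 ± 0.30 (SD, n = 3), and Slc40a1 was higher in 2 of 3 libraries. With the longest coding transcript as the length, the order of the 10 genes was the same, Slc40a1 lay above Cp by 0.51 ± 0.30 in 3 of 3 libraries, and Trf and Slc40a1 were then the pair not separated (0.04 ± 0.19). A sign-flip test over 3 mice cannot give a p under 0.25, so no test is given for this order.

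**Figure D3:**
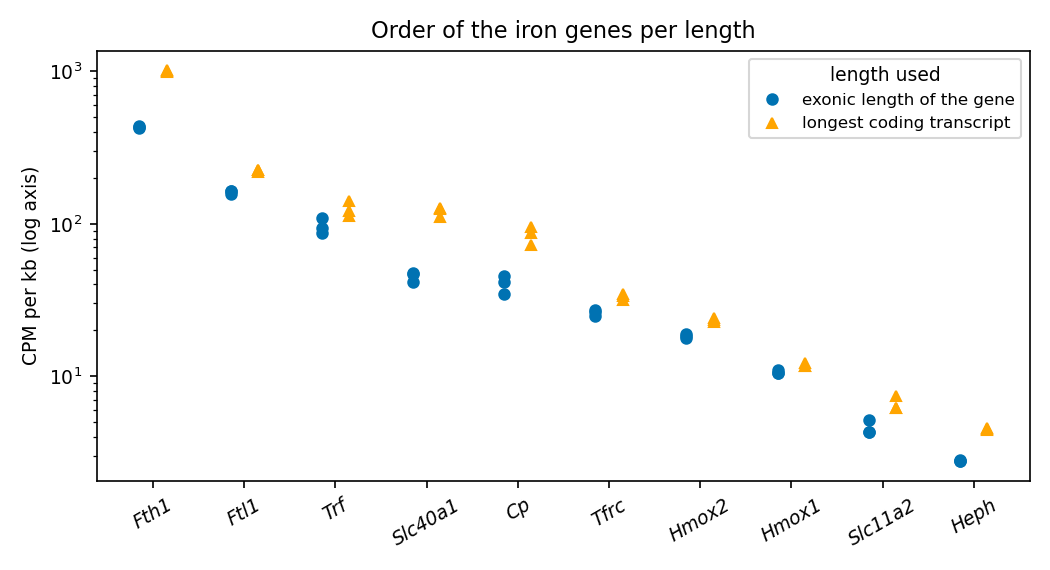
CPM per kilobase on a log axis for the 10 iron genes, ordered by their mean over exonic length. Circles use the exonic length of the gene and triangles its longest coding transcript, with a point for each of the 3 libraries. Slc40a1 and Cp overlap on the first scale, and Trf and Slc40a1 on the other.

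The levels of these 10 genes differed by 1.31-fold at most between the mice. The highest library was at least 1.5 times the lowest for 0 of the 10, where 12.2% of the detected genes reached that range, and 6.73% of the 9165 genes at 10 CPM or more in every library, a level that the 10 genes also reached. The widest range was that of Cp at 1.31-fold, followed by Trf at 1.24-fold and Slc11a2 just under 1.2-fold. At a lower limit of 1.2-fold, added after the data were seen, 2 of the 10 (Cp and Trf) passed, where 50.4% of the detected genes did. The narrowest was that of Heph at 1.02-fold. For 10 genes, 0 at 1.5-fold is not far from the shares of 12.2% and 6.73%. The median CV was 3.90% over the 10 genes, 9.59% over the detected genes and 8.45% over those at 10 CPM or more. It was 13.4% for Cp, 11.2% for Trf and 10.5% for Slc11a2, above both of these wider medians, and below both for the other iron genes. Neither wider set was matched to the abundance of the 10 genes.

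Counting error was well below the spread between libraries for 8 of the 10 genes, and near or above it for Hmox1 and Heph. It was 0.228% at the lowest Fth1 count, of 192136, and 2.04% at the lowest Hmox1 count, of 2395, beside CVs of 1.43% and 2.56%. For Heph, the CV of 0.919% was below the counting error of 1.79% to 1.90%, so the 3 libraries lay closer together than counting alone gives on average.

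Across all genes, edgeR's quasi-likelihood dispersion test asked which genes varied more between the mice than the trend for their abundance. At a Benjamini-Hochberg adjusted p under 0.05, it called 0 of the 10 iron genes and 0.0829% of the 18087 genes tested (15 genes). None of the 10 had an unadjusted p under 0.05, where 937 of all genes had, and the lowest adjusted p among them was 0.993. DESeq2 also marked 0 of the 10 as dispersion outliers. A gene that misses the threshold with 3 libraries is not shown to be stable.

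**Figure D4:**
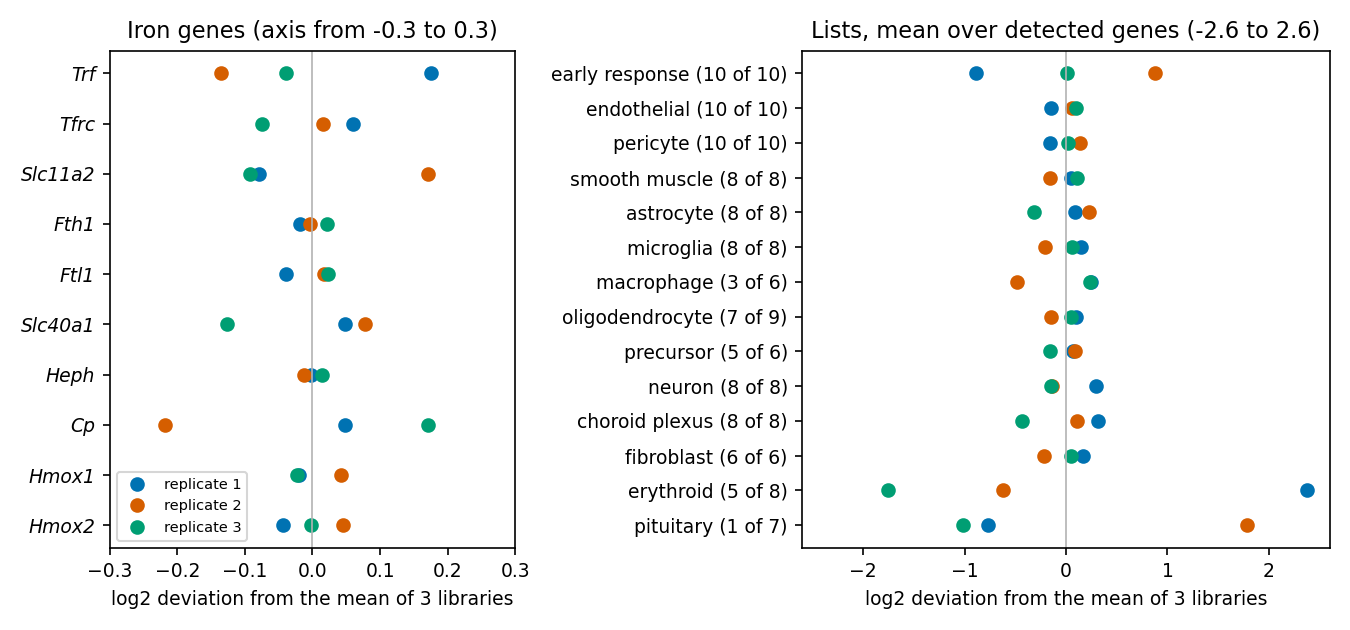
Log2 deviation of each library from the mean of 3, for the 10 iron genes (left) and as the mean over the detected genes of each marker and early response list (right, with detected and listed numbers). The horizontal axes differ: the iron genes stay between -0.22 and 0.17, and the erythroid list spans -1.76 to 2.38.

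Other genes of iron and heme handling were described by 9 lists with 94 genes. Of these, 82 were detected, and the median over all 94 was 5.05 on the log2(CPM + 1) scale, beside 4.79 over the detected genes of the table. The edgeR dispersion test called 1 of the 88 that were tested, Alas2. Values below are CPM with the SD over 3 libraries, and the genes named in each list are the 3 with the most CPM and, with 1 exception, the lowest.

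Of 10 genes of the transferrin cycle, 8 were detected. Snx3, which returns the receptor from endosomes, had 315 ± 18.5 CPM, Exoc6, an exocyst subunit, had 81.3 ± 9.60 CPM and Hfe, a partner of the receptor, had 72.7 ± 2.16 CPM. The second transferrin receptor, Tfr2, a gene of liver and erythroid cells, had only 0.400 ± 0.0809 CPM. Of 8 genes of other import routes, 7 were detected. Slc39a8, a metal carrier, had 179 ± 7.78 CPM, the siderocalin receptor Slc22a17 had 157 ± 39.4 CPM, Cd63 had 99.9 ± 10.3 CPM and Meltf had 0.187 ± 0.134 CPM.

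Of 7 genes of iron sensing and delivery, 6 were detected. The iron chaperones Pcbp2 and Pcbp1 had 285 ± 20.9 and 265 ± 20.8 CPM, and Ncoa4, which delivers ferritin to lysosomes, had 116 ± 1.69 CPM. Mitochondrial ferritin, Ftmt, had 0 counts in every library, which allows up to 0.0231, 0.0215 and 0.0207 CPM in replicates 1, 2 and 3 (3 counts of each library, counting error only). Named after their values were seen, for their link to the elements shown above, the iron regulatory protein genes Aco1 and Ireb2 had 69 ± 3.93 and 53.3 ± 10.1 CPM. Per kilobase of exon that was 15.3 ± 0.875 for Aco1 and 5.63 ± 1.06 for Ireb2. Of 18 genes around the hormone hepcidin and the BMP signal that drives it in liver, 14 were detected. Id1, a BMP target, had 628 ± 139.8 CPM, the receptor Bmpr2 433 ± 40.8 CPM and the inhibitory Smad7 109.6 ± 5.79 CPM. Hepcidin itself, Hamp, named after its values were seen, had 16, 21 and 21 counts, a mean of 0.139 ± 0.0144 CPM, and Hamp2 had 0 counts in every library.

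Of 13 genes of heme transport and breakdown, 10 were detected. Lrp1, a receptor that also takes up the heme-hemopexin complex, had 363 ± 47.7 CPM, the heme-binding Pgrmc1 208 ± 18.1 CPM and Flvcr2, a carrier of brain endothelium, 150.0 ± 30.9 CPM. The heme scavenger gene Hpx had 0.181 ± 0.124 CPM. All 11 genes of heme synthesis were detected. Alas1, the first enzyme of the pathway in most cells, had 376 ± 56.3 CPM, Tmem14c 83.3 ± 6.53 CPM, Urod 47.3 ± 3.55 CPM and the lowest, Uros, 10.2 ± 0.321 CPM.

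Alas2, the erythroid form of that first enzyme, had 30.6, 3.54 and 1.37 CPM in replicates 1, 2 and 3, and it was the gene called variable (edgeR's quasi-likelihood dispersion test, adjusted p = 0.0217). Replicate 1 was far above the other libraries, as it was for the globin markers, a list that also holds Alas2. Without replicate 1 the same test gave an adjusted p of 0.625, and with a robust prior 0.994. Of the 94 genes of these 9 lists, Alas2 and Keap1 were those whose coding transcripts hold the motif with the paired stem. Over all coding genes of GENCODE M21, 1.34% hold it. Whether either match works as an element was not tested.

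All 12 genes of mitochondrial iron and iron-sulfur clusters were detected, led by the cluster scaffold Iscu at 83.7 ± 3.86 CPM, Isca1 at 57.2 ± 2.20 CPM and Glrx5 at 32.3 ± 2.29 CPM. All 10 genes of the NRF2 and BACH1 pathway, which is known to control Hmox1, were detected. The activator Nfe2l2 had 133 ± 5.60 CPM, the repressor Bach1 80.0 ± 6.66 CPM, the target Gclm 74.9 ± 5.26 CPM and Osgin1 4.98 ± 1.38 CPM. Of 5 genes that supply copper, on which both ferroxidases depend, 4 were detected. The copper chaperone Atox1 had 222 ± 30.7 CPM, the copper importer Slc31a1 221 ± 6.91 CPM, the copper pump Atp7a 45.9 ± 2.37 CPM and its relative Atp7b 0.658 ± 0.253 CPM.

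**Figure D5:**
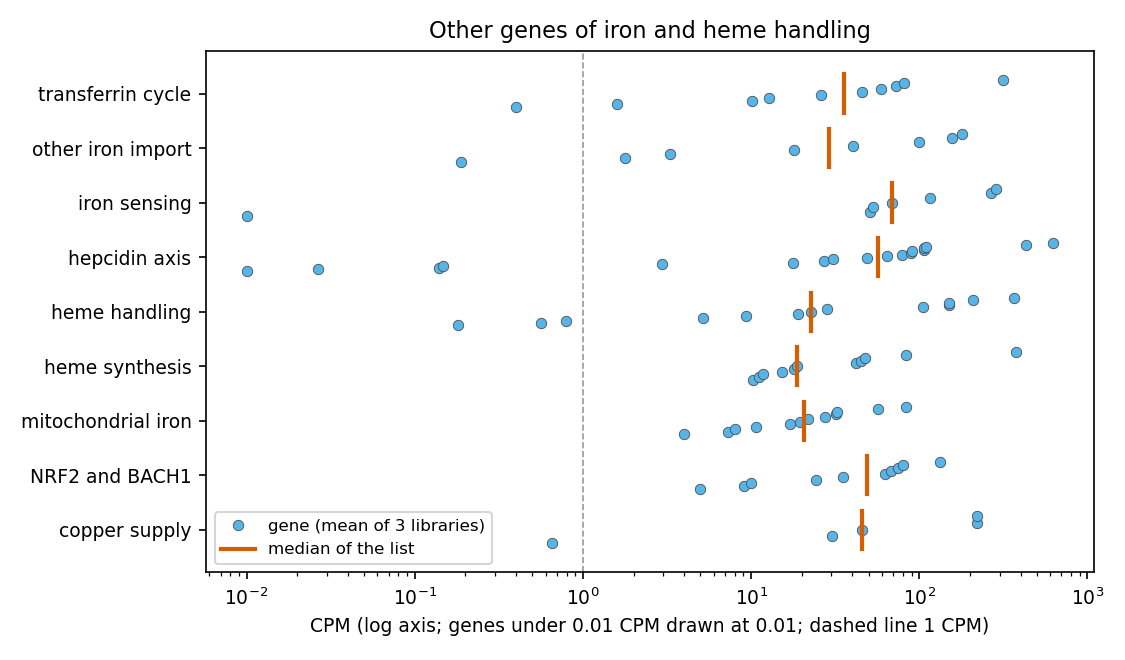
Mean CPM of 3 libraries on a log axis for the 94 genes of the 9 lists of iron and heme handling, with a point for each gene and a bar at the median of each list. Of the 94 genes, 82 reached 1 CPM in every library. Ftmt and Hamp2, with 0 counts, are drawn at 0.01 CPM.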

How the data were processed

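The authors deposited unnormalized whole-number counts for each gene. According to the submitters' processing notes, featureCounts and Subread 1.4.6-p5 were used with build GRCm39. Per the labels' protocols, polyadenylated stranded libraries were prepared with 400 ng of RNA and read as pairs of 150 bp. The aligner, the annotation, the strand setting and the handling of reads with several matches were not stated. Replicates were taken as separate mice, as the series' design text has it.

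CPM used TMM effective library sizes (edgeR 4.0.16, R 4.3.3). Each gene's quasi-dispersion, from an intercept-only quasi-likelihood fit after filterByExpr, was compared with its trended prior in an F test (upper tail). Benjamini-Hochberg adjustment covered all genes fitted. The test was checked on simulated counts. Library pairs differed beyond sampling noise (mean chi-square of 179 to 252 per gene). A count of 0 allows 3 counts in a library. Lengths, exon overlaps and motif searches used GENCODE M21 (GRCm38, matched by symbol), another build than the counts, so no genome coordinates are given. Tables were handled in Python 3.11.15 with pandas 2.3.3 and numpy 2.4.6. DESeq2 1.42.0, other normalizations, filters, lengths and left-out libraries served as alternatives.

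The 10 genes and the lists were chosen with earlier results of these data known. All 10 are named. From each iron list the text names the 3 highest by CPM, the lowest and any gene called variable, except 1 gene that is not reported here. Aco1, Ireb2, Hamp and Keap1 were named outside this rule.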

Additional observations from a re-analysis of the deposited data

How the results depend on the processing

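No paired analysis was possible because the 3 libraries form 1 group. The 10 genes stayed detected, under DESeq2 size factors, library totals and each left-out library. Their mean levels moved by less than 1 SD under the other size factors; leaving out 1 of 3 libraries cannot move a mean by more than that. At a 1.2-fold range, a limit chosen after seeing the data, 2 of the 10 genes passed. Lengths set the ratios on the log2 scale. Fth1 to Ftl1 was 2.79 with no length scaling and 2.17 with the longest coding transcript, a length chosen after seeing the data. Hmox1 to Hmox2 was -1.12 and -0.97, and Heph to Cp -4.18 and -4.23, in the same order. Over all genes, the dispersion calls numbered 173 with no filter, 0 with a robust prior (785 at an unadjusted p under 0.05), 137 by DESeq2, and 8, 82 and 33 without replicate 1, 2 and 3. The cause was not tested. None of these settings called an iron gene of the 10. Depth limits Heph and Hmox1 most.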
